A study of Homo sapiens with 13 samples.

Results

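This account covers 50 genes of the Wnt signaling pathway in hFOB 1.19 cells, a line of human fetal osteoblasts immortalized with a temperature-sensitive SV40 large T antigen. The genes were chosen by name as ligands, receptors, inhibitors, intracellular components and feedback targets, and 50 of 50 were found among the 43836 genes of the count table. Messenger RNA was sequenced in 12 libraries. Cells kept in 10% FBS (fetal bovine serum) made up the 2 positive control libraries and serum-starved cells the 2 negative control libraries, both with DMSO as the vehicle per the study's methods. RES (resveratrol, a plant stilbene, 3 libraries), POG (peonidin-3-O-glucoside, an anthocyanin, 3 libraries) and DEG (2 libraries with a column, of 3 labelled) were each given at 1 µg/ml. The methods describe RES and POG cells as serum-starved and say nothing separate about DEG, and the labels do not spell that abbreviation out. The dose was equal by mass and therefore not by mole, and the time on compound before harvest was not given in the sources used here. A single clonal line stands for osteoblasts throughout, and the labels do not say whether libraries of a group came from separate cultures. The p-values below therefore rest on a spread within groups, pooled over all 12 libraries, that may be technical.

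Wnt proteins are secreted, lipid-modified signals. PORCN attaches the lipid and WLS carries the loaded protein to the cell surface, where Frizzled receptors bind it together with LRP5 or LRP6, and this canonical branch stabilizes beta-catenin, which acts on genes through TCF/LEF factors. Other ligands such as WNT5A act largely through ROR1, ROR2 and RYK without beta-catenin. Secreted inhibitors of the DKK and SFRP families, sclerostin and WIF1 block ligand or co-receptor, while R-spondins acting on LGR receptors protect Frizzled proteins from removal by ZNRF3 and RNF43. In bone, canonical signaling is known for promoting bone formation, and loss-of-function changes of LRP5 or excess of DKK1 are known for low bone mass.

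The sequences just upstream of 6 of these genes are shown first, because DKK1, LGR6, RSPO3, FZD1, FZD4 and FZD8 had the largest falls with POG among the Wnt genes called lower there (FDR under 0.05) at a level of 1 CPM or more (CPM, read counts scaled by TMM to a common library total). Each is the 250 bases before the RefSeq gene start (GRCh38.p14), written 5′ to 3′ on the strand of the gene. Capitals mark a match, on either strand, to the TCF/LEF core (CTTTGAT or CTTTGTT) or to the GC box (GGGCGG), which reads CCGCCC when it lies on the other strand.
DKK1, chr10:52314031-52314280, plus strand: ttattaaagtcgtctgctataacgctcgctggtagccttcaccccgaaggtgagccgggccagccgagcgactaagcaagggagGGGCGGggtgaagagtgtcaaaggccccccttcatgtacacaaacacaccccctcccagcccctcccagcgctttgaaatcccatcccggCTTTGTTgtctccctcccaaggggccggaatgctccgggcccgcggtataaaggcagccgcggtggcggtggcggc
LGR6, chr1:202193549-202193798, plus strand: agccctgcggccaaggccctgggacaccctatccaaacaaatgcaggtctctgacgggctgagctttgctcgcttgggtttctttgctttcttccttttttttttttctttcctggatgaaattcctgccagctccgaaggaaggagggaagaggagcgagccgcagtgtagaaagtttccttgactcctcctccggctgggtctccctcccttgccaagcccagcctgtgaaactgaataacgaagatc
RSPO3, chr6:127118421-127118670, plus strand: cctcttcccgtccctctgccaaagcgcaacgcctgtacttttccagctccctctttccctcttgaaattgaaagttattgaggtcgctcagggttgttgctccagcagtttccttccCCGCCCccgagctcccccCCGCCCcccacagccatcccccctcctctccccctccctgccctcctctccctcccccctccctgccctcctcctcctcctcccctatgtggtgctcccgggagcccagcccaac
FZD1, chr7:91264183-91264432, plus strand: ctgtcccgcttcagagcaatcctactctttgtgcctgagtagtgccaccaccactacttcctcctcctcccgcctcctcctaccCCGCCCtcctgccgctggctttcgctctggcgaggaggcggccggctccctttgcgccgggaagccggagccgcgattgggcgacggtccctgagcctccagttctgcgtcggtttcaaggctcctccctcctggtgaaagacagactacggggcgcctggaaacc
FZD4, chr11:86955396-86955645, minus strand: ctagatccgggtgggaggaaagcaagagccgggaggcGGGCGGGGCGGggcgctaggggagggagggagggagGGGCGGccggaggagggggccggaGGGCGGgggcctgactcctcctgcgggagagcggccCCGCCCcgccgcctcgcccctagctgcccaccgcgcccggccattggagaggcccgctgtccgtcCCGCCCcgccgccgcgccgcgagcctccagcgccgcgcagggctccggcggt
FZD8, chr10:35642297-35642546, minus strand: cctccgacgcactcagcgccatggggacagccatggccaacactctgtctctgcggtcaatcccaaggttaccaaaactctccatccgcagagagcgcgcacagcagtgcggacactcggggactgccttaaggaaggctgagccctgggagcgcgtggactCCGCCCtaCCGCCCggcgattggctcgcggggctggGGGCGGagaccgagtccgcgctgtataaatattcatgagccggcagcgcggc
DKK1 held the TCF/LEF core CTTTGTT from 76 to 70 bases before its start, and it was the only one of the 35 Wnt genes with an entry in the promoter table that held either form of the core. Among all 35116 promoters of that length 6.6% held one. The GC box was found in 25 of the 35 (71.4%), against 42.6% of all promoters. FZD4 carried it 6 times (the first pair overlapping by 1 base), FZD8 3 times, RSPO3 2 times, DKK1 and FZD1 once and LGR6 not at all. The AP-1 letters TGANTCA were in 0 of the 35 and in 6.57% of all promoters. Among the 12 Wnt genes that fell under POG and had an entry, 1 held the TCF/LEF core and 8 (66.7%) the GC box. These are matches of letters in a window before an annotated start, which may not be the start used in these cells. All promoters had a median GC content of 58%, and the 6 shown ranged from 53.2% (LGR6) to 80.8% (FZD4). The GC box shares were not matched for GC content, whose part in them was not tested.

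Library totals ran from 38464619 to 51416358 counted reads, and the 50 Wnt genes took 0.203% to 0.224% of them. The summed level of the 10 listed osteoblast markers lay between 4820 and 5690 CPM in every library. Most of it came from COL1A1, COL1A2 and SPARC (2534, 1117 and 1060 CPM with POG). ALPL, BGLAP and SPP1 were at 3.46, 1.60 and 1.24 CPM with POG, and RUNX2 and POSTN at 49.2 and 68.8. Of the 10, 8 passed the filter on low counts, and SP7 and IBSP did not. IBSP, a mineralization marker, had reads with RES alone. The sum was highest in positive controls (5640 to 5690), and lowest with POG (4820 to 4850) and DEG (4840 to 4840). Lists for osteocytes, chondrocytes, adipocytes, blood cells, endothelium and epithelium summed to between 0.0503 and 6.54 CPM per library, and the osteocyte gene MEPE had no read. Chondrocyte markers were highest in positive controls (6.47 to 6.54 CPM) and lowest with POG (2.36 to 2.69 CPM), and proliferation markers lay between 2220 and 2540 CPM in all groups. The part of these markers in the results was not tested, and in such bulk RNA fewer cells of a type and less RNA per cell cannot be told apart. The pair of positive controls differed from each other by 4.59 times the sampling variance in the median gene and 10.6 times in the mean over genes, whereas pairs within the other groups differed by 2.07 to 2.44 and 2.06 to 2.63 times. Because the spread was pooled over groups, FDR values for serum may understate the spread of the positive controls, and those between other groups may overstate theirs.

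The cells expressed a dominant Wnt ligand, a broad set of receptors and almost none of several classical inhibitors. Levels of different genes are compared here as CPM per kilobase of exon. WNT5A, which signals mostly outside the beta-catenin branch, stood highest at 55.99 (51.87 to 65.15 over the 12 libraries), above every library of every other Wnt gene. LRP5 (26.56), FZD2 (25.1) and the ligand carrier WLS (23.58) followed, and the ranges of these 3 overlapped. CTNNB1, which encodes beta-catenin, had 19.08, DKK3 17.82 and TCF7L1 16.44, again with overlapping ranges. Among the co-receptors of R-spondin, LGR4 had 7.34, against 0.283 for LGR5 and 0.320 for LGR6. LEF1, the TCF/LEF factor with the lowest level, had 0.0623.

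Of the 50 genes, 42 passed the filter on low counts and were tested. The 8 that did not were the inhibitors DKK2, SFRP2, SFRP4, WIF1 and SOST, the ubiquitin ligase RNF43 and the feedback inhibitors NKD1 and NKD2. Each had at most 10 reads in any library. SOST, the sclerostin gene of osteocytes, had 1 read in the 12 libraries together. SFRP2 had 0 reads in positive controls, where 3 reads would equal 0.0328 CPM, and 0 in DEG, where they would equal 0.0385 CPM, against 9 reads in POG (0.0664 CPM, exact Poisson 95% interval 0.0303 to 0.126, which covers counting error only). RNF43 shares 68.4% of its exon bases with another annotated gene on the same strand, so its few reads are uncertain as well. No statement about change is made for these 8 at this depth.

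**Figure D1:**
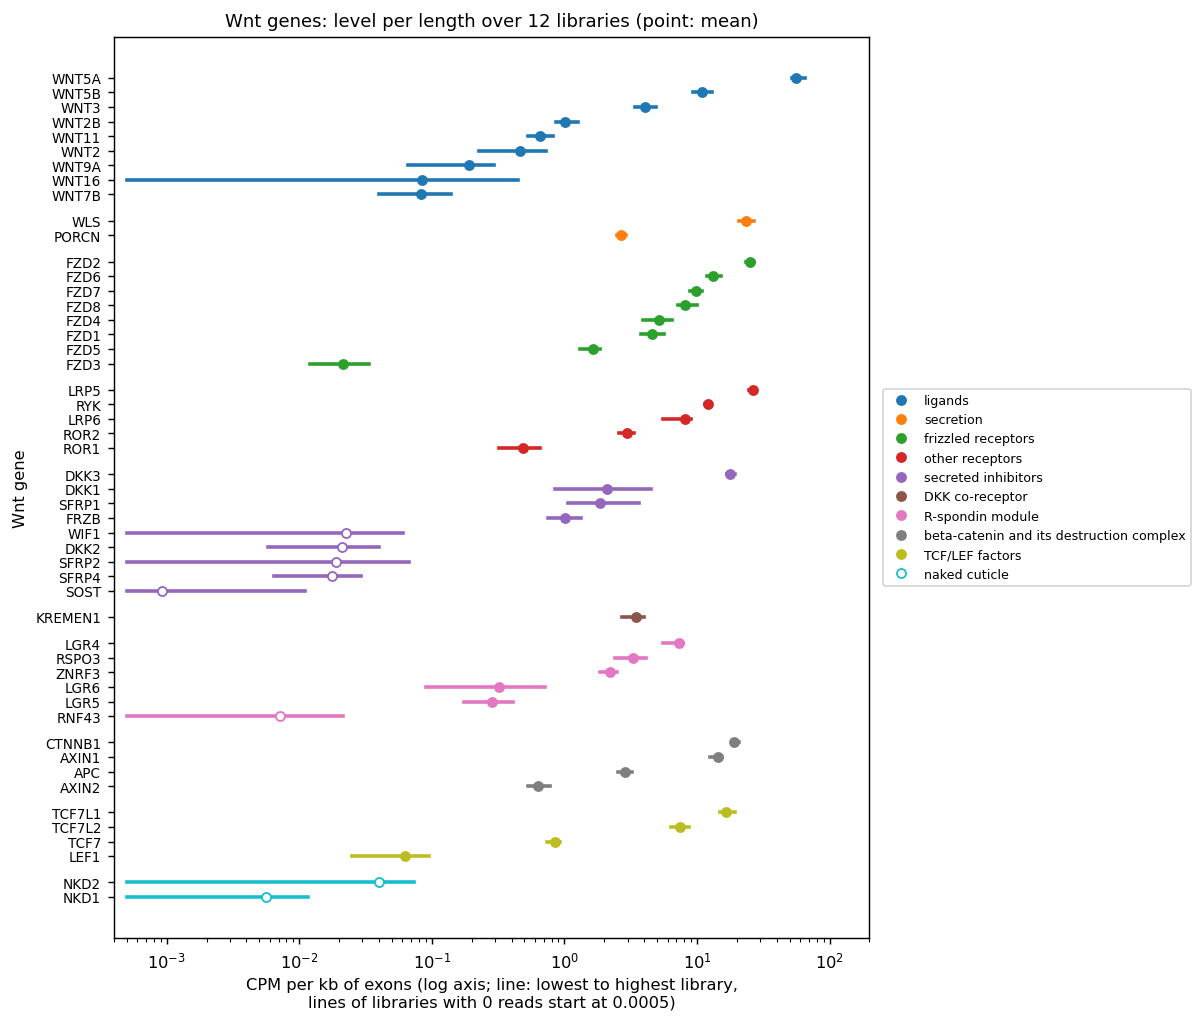
Level of each of the 50 Wnt genes as CPM per kilobase of exon on a log axis, with the mean over 12 libraries as a point (open where the gene was below the filter) and the lowest to highest library as a line, coloured by role. WNT5A lies at 55.99 at the top of the scale, while SOST, NKD1 and RNF43 lie lowest.

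A gene was called changed at a false discovery rate (FDR) under 0.05 over all 17092 genes tested. With serum, 21 of the 42 Wnt genes differed from negative controls, 5 higher and 16 lower, against 42.4% of all genes called (21.4% higher and 20.9% lower). WNT16, 1 of the 5, passed the filter on low counts only through the serum libraries and so had to differ. With RES 6 differed, 3 in each direction (14.3%), against a background of 11.2% (4.94% higher and 6.21% lower). With POG 18 differed, 2 higher and 16 lower (42.9%), where 14.5% of all genes were called, 5.93% higher and 8.57% lower. With DEG 11 differed, 1 higher and 10 lower (26.2%), beside 9.63% of all genes (3.52% higher and 6.11% lower). The share of Wnt genes called was close to the background with RES, and the share lower was 38.1% with POG and 23.8% with DEG. Single settings moved these counts by more than 1.5 times: RES had 11 when dispersions came from the libraries compared and 11 when positive controls were left out of the fit, POG had 11 without negative control replicate 1, and DEG had 7 without DEG replicate 1.

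The median log2 fold change over the 42 genes was −0.0933 for serum, 0.0350 for RES, −0.124 for POG and −0.0853 for DEG, where the median over all genes lay between −0.00586 and 0.00233. These 4 comparisons share the 2 negative control libraries. Scaling by library totals alone moved all genes by −0.0430, 0.0274, 0.0240 and 0.0188 (log2) and the share of calls that were higher from 50.6% to 41.0% with serum, from 44.3% to 64.0% with RES, from 40.9% to 56.0% with POG and from 36.6% to 49.3% with DEG. The Wnt calls, higher and lower, were then 4 and 19 for serum, 5 and 2 for RES, 3 and 12 for POG, and 2 and 9 for DEG. In 31 of the 42 genes (73.8%) at least 1 of the 4 comparisons was called, against 51.6% of all genes. The 31 include WNT16, whose only call was with serum, where the filter on low counts meant that it had to differ. WNT7B, WNT11, PORCN, FZD3, RYK, FRZB, LGR5, ZNRF3, AXIN2, TCF7 and LEF1 were called in none of the 4 comparisons.

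**Figure D2:**
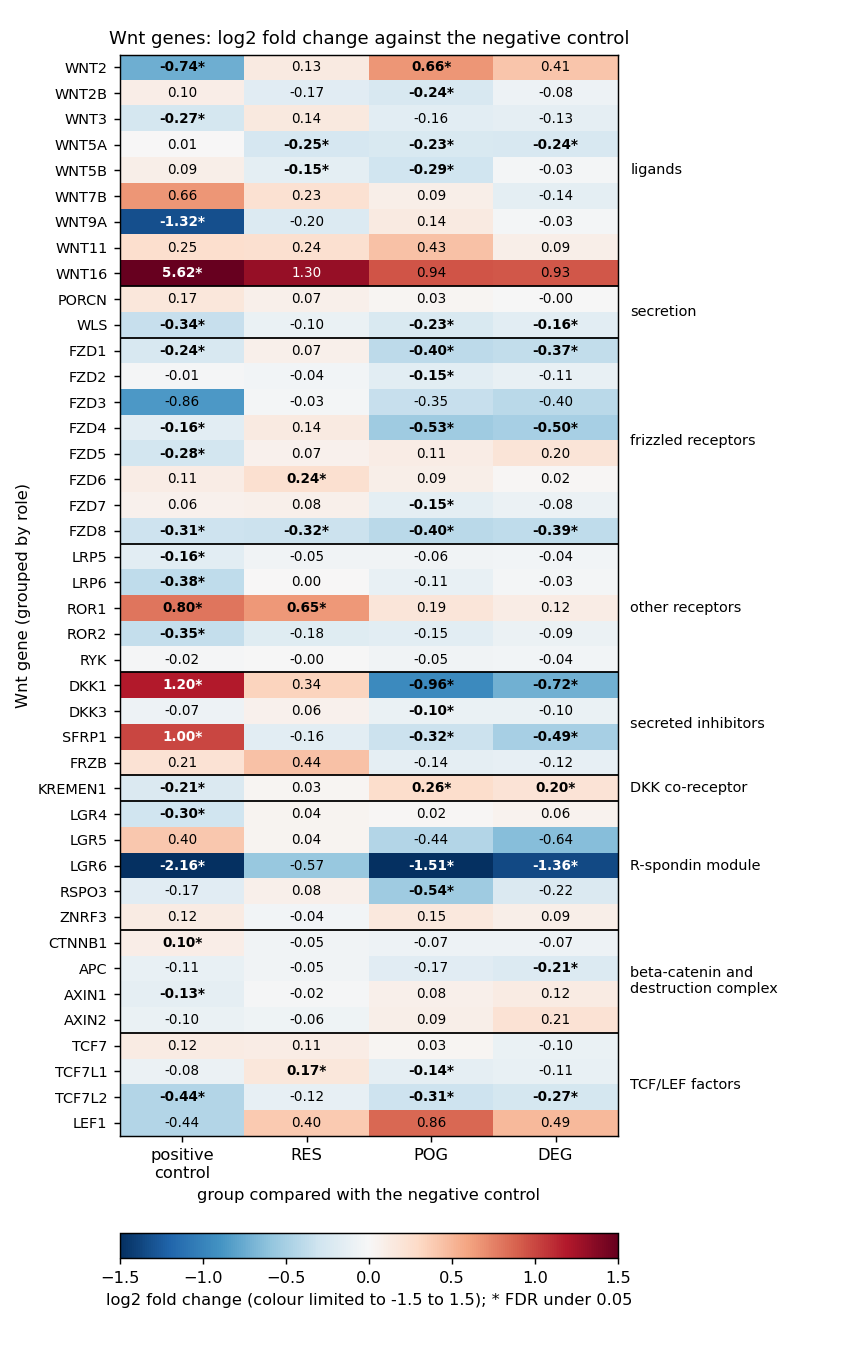
Log2 fold change of the 42 tested Wnt genes (rows, by role) in the 4 groups (columns) against the negative control, with red for higher, blue for lower and an asterisk for an FDR under 0.05. POG has 16 calls that are lower and DEG 10, with DKK1 higher in serum and lower in both. The asterisk of WNT16 with serum marks a call that the filter on low counts fixed in advance.

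Among the ligands, WNT5A was lower with each of the compounds and WNT16 was read mainly in serum. WNT5A (chr3:55465715-55490539, minus strand; gene positions from GENCODE v44, hg38) stood at 444 and 446 CPM in negative controls, 371, 375 and 378 with RES, 382, 381 and 378 with POG, and 375 and 380 with DEG. All 8 libraries with a compound lay below both negative controls, while the positive controls (430 and 466) lay on either side of them. The log2 fold change was −0.25 with RES (SE 0.0296, FDR = 1e-10), −0.23 with POG (SE 0.0296, FDR = 3.32e-09) and −0.24 with DEG (SE 0.0325, FDR = 3.85e-08). It thus fell by 15.8%, fell by 14.5% and fell by 15.2%, in that order.

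WNT5B, a close relative, was at 48.4 and 50.7 CPM in negative controls, 42.8, 45.0 and 46.0 with RES, and 39.7, 41.0 and 40.4 with POG. DEG libraries (48.4 and 48.4) reached the negative controls, and RES and POG libraries did not. It fell by 0.29 with POG (SE 0.0485, FDR = 2.74e-07) and by 0.15 with RES (SE 0.0482, FDR = 0.0290). The RES call was lost under 8 alternatives: when any of 4 single libraries, among them either negative control, was left out, in DESeq2, with library totals, without a filter and at an FDR of 0.01. With DEG the log2 fold change was −0.03 (95% interval −0.14 to 0.08).

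WNT16, a ligand known for protecting cortical bone, had 65 and 62 reads in the positive controls and 0 and 2 in the negative controls. The 8 libraries with a compound held 1 to 5 reads each, so that every positive control lay above every other library. The ratio of serum to negative control was 54.4, with a counting interval of 14.8 to 454 (95%). Since only the serum libraries carried WNT16 past the filter on low counts, the ratio is a description and no test of it is given, and it was not tested under the filter at a mean of 1 CPM. WNT9A, also scarce, had 13 and 18 reads with serum and 27 and 40 in negative controls, which gave a log2 fold change of −1.32 (SE 0.408, FDR = 0.00286). That call was lost without positive control replicate 1 (FDR = 0.112) and without negative control replicate 2.

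WNT2, a canonical ligand, moved in opposite directions in serum and POG. Its level was 0.992 and 1.09 CPM with serum, 1.94 and 1.53 in negative controls, 1.503, 2.168 and 2.019 with RES, 2.38, 2.70 and 3.14 with POG, and 2.14 and 2.47 with DEG. Serum libraries were the lowest of all and POG libraries lay above both negative controls. The log2 fold change was −0.74 with serum (SE 0.249, FDR = 0.00820) and 0.66 with POG (SE 0.203, FDR = 0.0104). The serum call was lost without positive control replicate 1 or negative control replicate 1. The POG call was lost without negative control replicate 2, without POG replicate 3, in DESeq2 and at an FDR of 0.01.

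WNT3 was called with serum alone of the 4 comparisons (18.9 ± 0.631 against 22.8 ± 0.0732 CPM, SD, n = 2 each, log2 fold change −0.27, FDR = 0.000548). WNT2B fell by 0.24 with POG (FDR = 0.0359), a call lost under 9 alternatives, and it shares 21.5% of its exon bases with ST7L on the opposite strand. WNT7B and WNT11 were not called, at 0.202 to 0.708 and 1.26 to 1.94 CPM over all libraries. WLS was lower with serum (92.8 ± 1.26 against 117.6 ± 4.595 CPM, SD, n = 2 each, log2 fold change −0.34, FDR = 2.49e-14), with POG (101 ± 1.11, SD, n = 3, log2 fold change −0.23, FDR = 2.92e-07) and with DEG (105.3 ± 3.004, SD, n = 2, log2 fold change −0.16, FDR = 0.00418). The DEG call for WLS was lost without DEG replicate 1 or negative control replicate 2. PORCN was not called and lay between 14.6 and 17.0 CPM throughout.

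Among the 8 Frizzled receptors, 5 fell with POG, 3 with DEG and 4 with serum, and the others were not called in those comparisons. Of all genes tested, 8.57%, 6.11% and 20.9% were lower, in that order. With RES, 1 rose and 1 fell, where 4.94% of all genes were higher and 6.21% lower. FZD8, FZD4 and FZD1 fell with both POG and DEG, and FZD2 and FZD7 with POG. The median log2 fold change of the 8 was −0.249 with POG and −0.241 with DEG, against 0.0698 with RES and −0.198 with serum. FZD5 was called with serum alone of these 4 (log2 fold change −0.28, SE 0.0874, FDR = 0.00596), and that call was lost when positive control replicate 1 or negative control replicate 1 was left out. FZD3, at 0.166 to 0.465 CPM, was not called.

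FZD4 (chr11:86945679-86955395, minus strand), which also binds the non-Wnt ligand norrin, was at 42.2 and 44.3 CPM in negative controls and at 47.7, 47.5 and 47.2 with RES. With POG it was at 30.7, 29.0 and 30.3 CPM and with DEG at 29.6 and 31.7. All 5 POG and DEG libraries lay below every other library, including the positive controls at 36.5 and 41.2. It fell by 30.6% with POG (log2 fold change −0.53, SE 0.0533, FDR = 1.05e-19) and fell by 29.1% with DEG (−0.50, SE 0.0595, FDR = 7.70e-14). With serum it was −0.16 (FDR = 0.0224), a call lost under 5 alternatives. FZD4 shares 18.9% of its exon bases with PRSS23 on the opposite strand, and PRSS23 changed by 0.385 with serum, −0.553 with POG and −0.375 with DEG. The strand setting of the read counting was not stated, so the part of PRSS23 in the reads of FZD4 was not tested.

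FZD8 (chr10:35638247-35642296, minus strand) was the only Wnt gene called in each of the 4 comparisons, always lower. It stood at 39.4 and 40.5 CPM in negative controls and between 29.2 and 33.3 in the other 10 libraries, without overlap. Serum gave a log2 fold change of −0.31 (SE 0.0564, FDR = 4.49e-07), RES −0.32 (SE 0.0515, FDR = 1.69e-07), POG −0.40 (SE 0.0517, FDR = 3.47e-12) and DEG −0.39 (SE 0.0576, FDR = 6.74e-09). A level set apart in the 2 negative controls enters each of these values.

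FZD1 (chr7:91264433-91271326, plus strand) had 37.1 and 34.3 CPM in negative controls, 36.0, 37.9 and 38.8 with RES, 27.3, 27.0 and 27.1 with POG, and 29.2 and 25.9 with DEG. POG and DEG libraries lay below all RES and negative control libraries. The log2 fold change was −0.40 with POG (SE 0.0579, FDR = 1.57e-09) and −0.37 with DEG (SE 0.0645, FDR = 9.30e-07). It was lower with serum as well (−0.24, FDR = 0.000725), which did not pass once negative control replicate 1 was left out.

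FZD6 went the other way with RES, from 51.7 and 48.7 CPM in negative controls to 58.1, 57.5 and 61.5. Every RES library lay above every negative control. The log2 fold change was 0.24 (SE 0.0460, FDR = 3.95e-05). With POG and DEG it was 0.09 and 0.02, neither called. FZD2 and FZD7 fell by 0.15 each with POG (FDR = 0.00444 and 0.0256), and both calls were lost without negative control replicate 1, that of FZD7 also under 8 other alternatives.

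Of the co-receptors, LRP5 and LRP6, which bind Wnt together with Frizzled, were lower in serum and not called with any compound. LRP5 was at 152 and 154 CPM with serum against 171 and 171 in negative controls (log2 fold change −0.16, SE 0.0354, FDR = 0.000165). LRP6 was at 57.6 and 80.8 CPM against 88.8 and 91.2, so that the size of its fall (−0.38, SE 0.0772, FDR = 8.53e-06) depended on which positive control was used, from −0.15 to −0.64. Both calls held when each library was left out in turn. With POG, LRP6 was called lower (−0.11) with dispersions from the libraries compared and with positive controls left out of the fit.

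ROR1 (chr1:63774017-64181498, plus strand), a receptor tyrosine kinase for WNT5A, rose with serum and with RES. It had 4.31 and 4.34 CPM in positive controls, 2.17 and 2.79 in negative controls, 4.37, 3.58 and 3.72 with RES, 2.82, 2.84 and 2.82 with POG, and 2.61 and 2.77 with DEG. Serum and RES libraries were above all others. The log2 fold change was 0.80 with serum (SE 0.162, FDR = 3.54e-06) and 0.65 with RES (SE 0.153, FDR = 0.000515), the latter lost without negative control replicate 1 (FDR = 0.131). ROR2 moved down with serum (15.1 ± 0.0858 against 19.3 ± 0.385 CPM, SD, n = 2 each, log2 fold change −0.35, FDR = 9.55e-06). RYK, at 94.3 to 101 CPM in all libraries, was not called in any comparison.

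Of the 4 secreted inhibitors tested, 2 rose with serum, 3 fell with POG and 2 fell with DEG, where 21.4% of all genes were higher with serum and 8.57% and 6.11% lower with POG and DEG. DKK1 (chr10:52314281-52318042, plus strand) binds LRP5 and LRP6 and blocks canonical signaling, and 10.2% of its exon bases overlap an antisense non-coding gene. It was at 10.1 and 9.53 CPM with serum, 4.31 and 4.25 in negative controls, 5.52, 5.61 and 5.09 with RES, 2.64, 1.88 and 2.09 with POG, and 2.58 and 2.62 with DEG. The groups followed in the order serum, RES, negative control, then POG and DEG, and only POG and DEG overlapped. It was 2.29 times higher with serum (log2 fold change 1.20, SE 0.130, FDR = 2.75e-20), fell by 48.5% with POG (−0.96, SE 0.141, FDR = 6.18e-10) and fell by 39.2% with DEG (−0.72, SE 0.156, FDR = 0.000144). These 3 calls held under every alternative tried. With RES the value was 0.34 (SE 0.126, FDR = 0.0582), which was called under 3 alternatives and not under the others.

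SFRP1, which binds Wnt ligands and Frizzled, had 16.3 and 17.2 CPM with serum, 8.47 and 8.27 in negative controls, 8.12, 7.62 and 6.69 with RES, 7.41, 6.31 and 6.35 with POG, and 5.04 and 6.84 with DEG. Serum libraries were the highest and each compound library lay below both negative controls. It was 2.00 times higher with serum (log2 fold change 1.00, SE 0.112, FDR = 2.65e-18). With DEG it fell by 0.49 (SE 0.127, FDR = 0.00182), a call lost without DEG replicate 1 (FDR = 0.304), and with POG by 0.32 (SE 0.111, FDR = 0.0268), a call lost under 7 alternatives. With RES it was −0.16 (FDR = 0.390).

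DKK3, by far the most abundant DKK family gene here, fell by 0.10 with POG (203 ± 3.09, SD, n = 3, against 219 ± 4.15 CPM, SD, n = 2, FDR = 0.0189), a call lost under 7 alternatives. It shares 47.5% of its exon bases with USP47 on the opposite strand, which was not called. FRZB, another Frizzled-related inhibitor, was not called against negative controls (FDR = 0.0690 with RES, log2 fold change 0.44). KREMEN1, a receptor through which DKK1 removes LRP6 from the surface, was at 25.3 and 27.7 CPM in negative controls, 31.3, 31.9 and 32.1 with POG, 31.3 and 29.7 with DEG, and 22.0 and 23.8 with serum. It moved opposite to DKK1 in each of these 3 comparisons, with a log2 fold change of 0.26 with POG (SE 0.0594, FDR = 0.000370), 0.20 with DEG (SE 0.0657, FDR = 0.0307) and −0.21 with serum (SE 0.0666, FDR = 0.00541). The POG call was lost without negative control replicate 1, and the DEG call under 7 alternatives.

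In the R-spondin module, LGR6 and RSPO3 fell with POG. LGR6 (chr1:202193799-202319781, plus strand), a receptor for R-spondins, had 0.830 and 0.427 CPM with serum, 2.40 and 3.32 in negative controls, 2.06, 1.86 and 1.86 with RES, 1.154, 0.748 and 1.097 with POG, and 0.904 and 1.32 with DEG. These levels rest on 18 to 132 reads per library. Negative controls were the highest group, RES came next without overlap, and POG overlapped both serum and DEG at the bottom. It fell by 77.6% with serum (log2 fold change −2.16, SE 0.300, FDR = 9.21e-14), fell by 64.9% with POG (−1.51, SE 0.243, FDR = 4.71e-09) and fell by 61.0% with DEG (−1.36, SE 0.275, FDR = 1.19e-05). No alternative lost any of the 3 calls. With RES it was −0.57 (SE 0.224, FDR = 0.0720), called under 3 alternatives, 1 of them added after seeing the data.

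RSPO3 (chr6:127118671-127199481, plus strand), the R-spondin ligand of this set, with 15.7% of its exon bases under a pseudogene on the opposite strand, was at 18.1 and 18.1 CPM in negative controls, 12.99, 11.93 and 12.48 with POG, and 16.12 and 14.99 with DEG. POG libraries were below all others, and RES (17.8 to 20.5) overlapped the negative controls. It fell by 31.1% with POG (log2 fold change −0.54, SE 0.0741, FDR = 9.23e-11), while DEG gave −0.22 (SE 0.0809, FDR = 0.0735) and serum −0.17 (FDR = 0.0705). LGR4, the abundant receptor of this family, was lower with serum alone (35.5 and 41.3 against 47.1 and 47.5 CPM, log2 fold change −0.30, SE 0.0578, FDR = 2.23e-06). LGR5 and the ubiquitin ligase ZNRF3 were not called against negative controls.

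**Figure D3:**
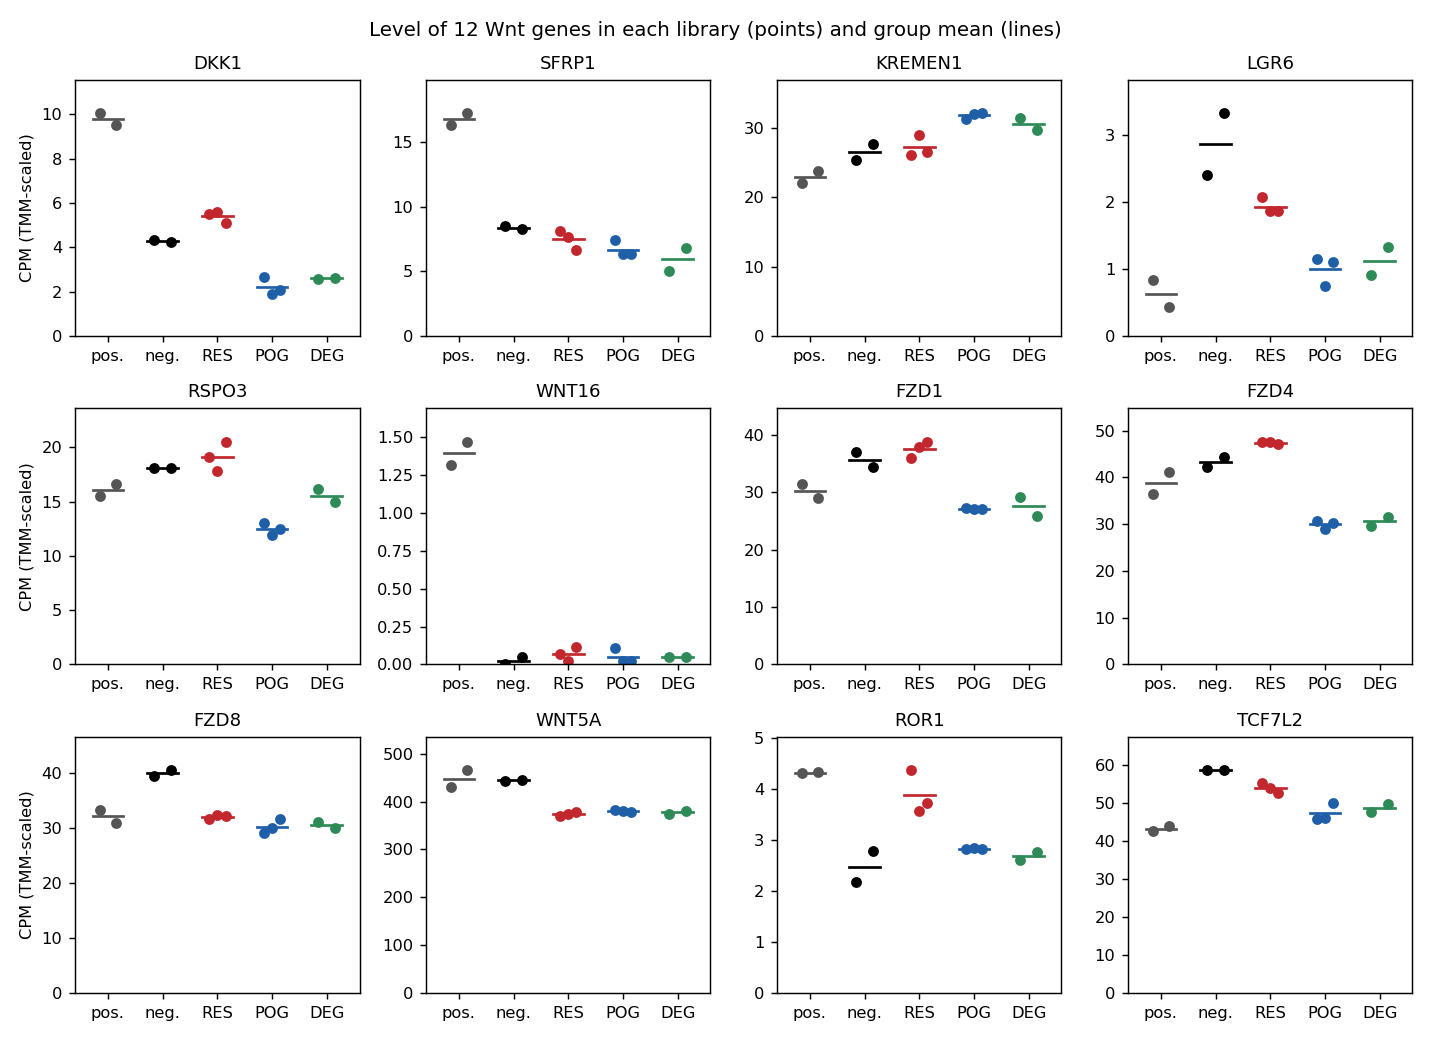
Level in CPM (y axes from 0, scaled per panel) of 12 Wnt genes in each library (points) and each group mean (lines). DKK1 (10.1 and 9.53 CPM) and SFRP1 (16.3 and 17.2 CPM) are highest in serum, and FZD8 (39.4 and 40.5 CPM) is highest in negative controls.

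Beta-catenin and its destruction complex changed little in messenger RNA. CTNNB1 was 0.10 higher (log2) with serum (245 ± 0.476 against 228 ± 5.78 CPM, SD, n = 2 each, FDR = 0.0123), a call lost under 5 alternatives, and was not called with any compound. With POG it was called lower (−0.07) with dispersions from the libraries compared and with positive controls left out of the fit. AXIN1, the scaffold of the complex, fell by 0.13 with serum (FDR = 0.00672) and was lost under 3 alternatives. With DEG it was 0.12 (FDR = 0.0515), called higher under 6 alternatives, and with POG 0.08 (FDR = 0.164), called higher under 3, in each case 1 of them added after seeing the data. It was called higher than with RES in both, by 0.14 with DEG (FDR = 0.00247) and by 0.10 with POG (FDR = 0.0143). The POG call was lost under 5 alternatives, and the DEG call without DEG replicate 2. APC fell by 0.21 with DEG (FDR = 0.0464) and was lost under 9. With POG its FDR was 0.0530, and it was called lower under several alternatives, among them dispersions from the libraries compared (log2 fold change −0.17). AXIN2, which is both a scaffold and a well-known feedback target of canonical signaling, lay between 2.78 and 4.08 CPM and was not called in any comparison. Its log2 fold change was −0.10 with serum (95% interval −0.44 to 0.23), −0.06 with RES (−0.37 to 0.24), 0.09 with POG (−0.21 to 0.39) and 0.21 with DEG (−0.11 to 0.54), and 25.3% of its exon bases are shared with another annotated gene on the same strand.

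Among the TCF/LEF factors, which carry beta-catenin to DNA, TCF7L2 was lower in 3 groups and TCF7L1 moved in opposite directions with RES and POG. TCF7L2 (chr10:112950247-113167678, plus strand) was at 42.58 and 43.96 CPM with serum, 58.7 and 58.7 in negative controls, 55.3, 53.9 and 52.7 with RES, 46.0, 46.0 and 50.1 with POG, and 47.6 and 49.9 with DEG. Negative controls were the highest libraries and serum the lowest. The log2 fold change was −0.44 with serum (SE 0.0507, FDR = 1.12e-15), −0.31 with POG (SE 0.0459, FDR = 5.12e-09) and −0.27 with DEG (SE 0.0509, FDR = 2.22e-05).

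TCF7L1 (chr2:85133392-85310387, plus strand), known mainly as a repressor, was at 76.2 and 71.3 CPM in negative controls, 80.4, 83.8 and 85.1 with RES, and 68.6, 65.9 and 66.9 with POG. RES libraries lay above and POG libraries below both negative controls. It was 0.17 higher with RES (SE 0.0419, FDR = 0.00218), lost without negative control replicate 2, and fell by 0.14 with POG (SE 0.0423, FDR = 0.0216), lost under 6 alternatives. TCF7 (7.52 to 9.32 CPM) and LEF1 (6 to 23 reads per library) were not called in any comparison.

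The compounds were compared directly as 3 pairs, at the same mass dose. POG and RES, an anthocyanin glucoside and a stilbene, differed in 20 of the 42 Wnt genes, 4 higher and 16 lower with POG (47.6%), against 27.9% of all genes (13.7% higher and 14.1% lower). DEG and RES differed in 17, 2 higher and 15 lower with DEG (40.5%), against 21.2% (10.3% higher and 10.8% lower). DEG and POG differed in 2, both higher with DEG (4.76%), against 1.05% (0.550% higher and 0.497% lower). The median differences over the 42 genes were −0.117, −0.109 and 0.0141. DEG against RES had 9 without DEG replicate 1 and 11 without DEG replicate 2, and DEG against POG had 1 without POG replicate 2 or either DEG library.

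DKK1 gave the widest gap. Relative to RES it dropped by 59.2% with POG (log2 difference −1.29, SE 0.123, FDR = 3.57e-25) and dropped by 51.9% with DEG (−1.05, SE 0.141, FDR = 7.71e-13), without overlap in either pair. LGR6 differed by −0.94 between POG and RES (SE 0.228, FDR = 0.000151) and by −0.79 between DEG and RES (SE 0.261, FDR = 0.0118). The DEG value for LGR6 lost its call without DEG replicate 1 (FDR = 0.321), in DESeq2 and at an FDR of 0.01. FZD4 differed by −0.66 (SE 0.0471, FDR = 1.21e-40) and −0.63 (SE 0.0540, FDR = 5.87e-28), and RSPO3 by −0.62 (SE 0.0655, FDR = 6.49e-19) and −0.30 (SE 0.0730, FDR = 0.000633). The DEG call for RSPO3 was lost without DEG replicate 2. PRSS23, which overlaps FZD4 on the opposite strand, differed by −0.659 between POG and RES (FDR = 1.96e-91). Its part in the reads of FZD4 was not tested. The receptor LGR5 was called between DEG and RES alone of the 3 pairs (1.11 and 0.916 against 2.041, 1.319 and 1.503 CPM, −0.68, FDR = 0.0232). That call was lost without either DEG library, without RES replicate 1, in DESeq2 and at an FDR of 0.01.

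Further genes separated POG and DEG from RES. Against the negative control, FRZB and WNT3 were called with no compound, ROR1 with RES alone of the compounds, and TCF7L1 with RES and POG. FRZB was at 3.43, 3.04 and 3.50 CPM with RES, 2.13, 2.61 and 1.98 with POG, and 2.27 and 2.24 with DEG, with RES above both. The difference was −0.57 for POG (SE 0.148, FDR = 0.000638) and −0.56 for DEG (SE 0.171, FDR = 0.00736). WNT3 differed by −0.30 and −0.28 (FDR = 9.18e-07 and 0.000203), TCF7L1 by −0.31 and −0.28 (FDR = 1.91e-13 and 1.15e-08) and ROR1 by −0.46 and −0.53 (FDR = 0.00182 and 0.00312). In each of these the level was lower with POG and DEG than with RES. WNT3, FRZB and ROR1 lost the DEG call without DEG replicate 1, and FRZB also without DEG replicate 2.

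POG and DEG differed in RSPO3 (0.32 higher with DEG, SE 0.0757, FDR = 0.00871) and in WNT5B (0.26 higher with DEG, SE 0.0486, FDR = 0.000187). The RSPO3 call was lost without POG replicate 2 and without either DEG library. For the other Wnt genes no difference passed, and the intervals set how large one could be. For DKK1 the log2 difference of DEG from POG was 0.24 (95% interval −0.08 to 0.55), for LGR6 0.15 (−0.41 to 0.72), for FZD4 0.03 (−0.08 to 0.14), for FZD8 0.02 (−0.09 to 0.12) and for WNT5A −0.01 (−0.07 to 0.05). WNT5A also did not pass between POG and RES (0.02, −0.03 to 0.08).

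**Figure D4:**
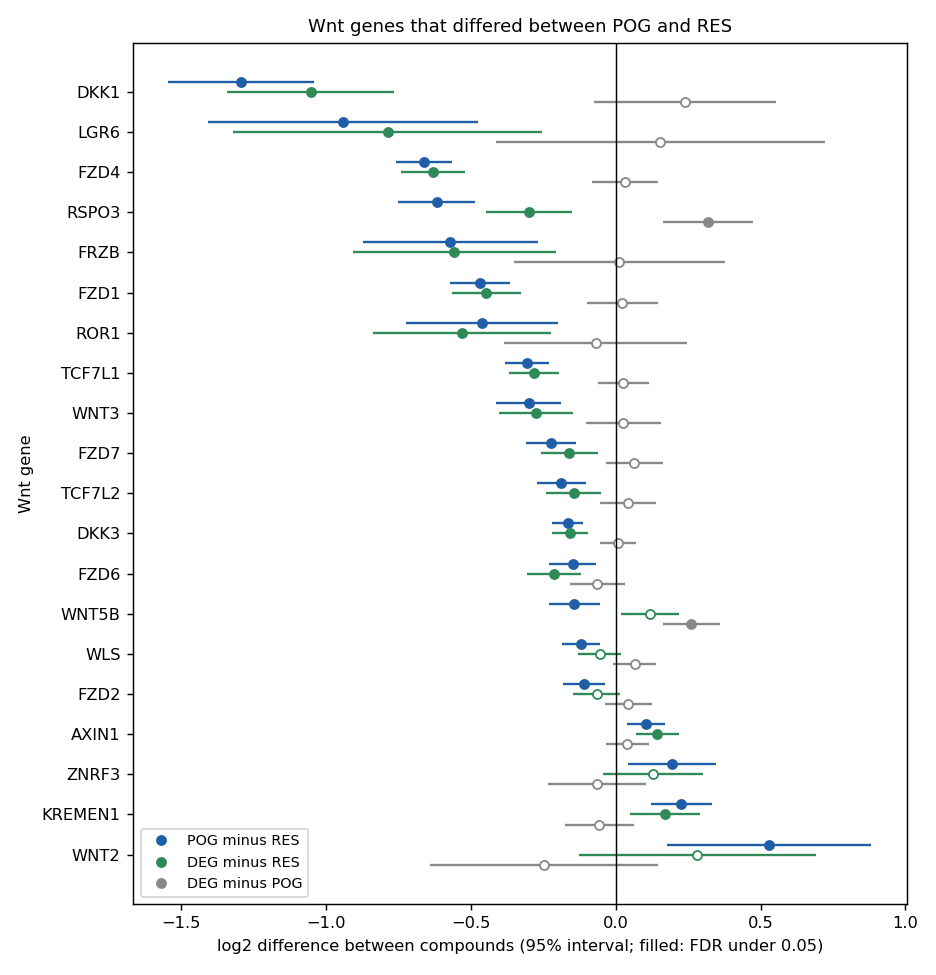
Log2 difference between compounds (x axis) with its 95% interval for the 20 Wnt genes called between POG and RES, for POG minus RES, DEG minus RES and DEG minus POG, filled where the FDR was under 0.05. DKK1 has the largest difference, −1.29 for POG minus RES, and only RSPO3 and WNT5B are filled for DEG minus POG.

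Beyond these 50, a wider list of 85 pathway genes was examined, of which 63 were tested. Serum gave 30 calls (47.6%, against 42.4% of all genes), 11 higher (17.5%, against 21.4%) and 19 lower (30.2%, against 20.9%). RES gave 13 (20.6%, against 11.2%), 4 higher (6.35%, against 4.94%) and 9 lower (14.3%, against 6.21%). POG gave 10 calls (15.9%, against 14.5%) and DEG 7 (11.1%, against 9.63%), totals near the background. Every POG and DEG call was lower, where 8.57% of all genes were lower with POG and 6.11% with DEG. None was higher, against 5.93% of all genes with POG and 3.52% with DEG. Leaving out negative control replicate 1 left 5 calls for RES, leaving out negative control replicate 2 left 8, and leaving out DEG replicate 1 left 3 for DEG. Among 10 tested targets of TCF and beta-catenin outside the first set, 6 (60%) were called with serum, against 42.4% of all genes. Of these, 2 were higher (20%, against 21.4%) and 4 lower (40%, against 20.9%). With RES 3 were called (30%, against 11.2%), 1 higher (10%, against 4.94%) and 2 lower (20%, against 6.21%). POG and DEG gave 3 each (30%), all lower, where 8.57% of all genes were lower with POG and 6.11% with DEG.

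CCND1, which encodes cyclin D1, was at 328 ± 6.20 CPM with serum (SD, n = 2), 150 ± 0.119 in negative controls (SD, n = 2), 165 ± 1.82 with RES (SD, n = 3), 128 ± 0.260 with POG (SD, n = 3) and 134 ± 2.44 with DEG (SD, n = 2). It was called in each of the 4 comparisons, higher with serum (log2 fold change 1.12, SE 0.0334, FDR = 2.71e-198) and RES (0.14, SE 0.0311, FDR = 0.00223) and lower with POG (−0.23, SE 0.0314, FDR = 2.10e-09) and DEG (−0.17, SE 0.0345, FDR = 0.000633). MYC, a growth-promoting transcription factor, was 1.013 higher with serum (log2, FDR = 2.59e-85) and fell by 0.16 with RES (FDR = 0.0140). TNFRSF19, a receptor listed among beta-catenin targets, fell by 0.68 with POG (FDR = 4.11e-11) and by 0.49 with DEG (FDR = 0.000121), and was 0.20 with RES (FDR = 0.151). Its log2 difference of POG from RES was −0.87 (FDR = 8.16e-25).

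NOTUM, an enzyme that removes the lipid from Wnt proteins, was at 4.19 ± 0.0616 CPM in negative controls (SD, n = 2), 2.20 ± 0.258 with RES (SD, n = 3), 2.53 ± 0.215 with POG (SD, n = 3) and 3.18 ± 0.433 with DEG (SD, n = 2). It fell by 0.93 with RES (SE 0.153, FDR = 5.19e-08) and by 0.73 with POG (SE 0.150, FDR = 1.99e-05), and DEG gave −0.40 (FDR = 0.108). DACT1, a binding partner of Dishevelled, fell with each compound, by 0.40 with RES, 0.45 with POG and 0.41 with DEG (FDR = 0.00207, 0.000239 and 0.00665). The glypican GPC6 was the 1 gene of the wider list called between DEG and POG (0.21 higher with DEG, FDR = 0.0489), and that call was lost in edgeR's quasi-likelihood test and when any single library of the pair was left out.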

How the data were processed

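The values deposited by the authors were unnormalized counts of reads on each gene, in 1 table covering 12 of the 13 labelled samples. DEG replicate 3 was not analysed here. Per the labels and methods, polyA RNA was made into libraries with a strand-selecting kit, sequenced as read pairs, aligned to hg38 with STAR (BWA MEM was named too) and counted on Ensembl genes with featureCounts. Versions and the strand setting of the counting were not given in the sources used here, so genes overlapping on opposite strands carry uncertain counts.

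Counts were filtered with filterByExpr by group (17092 genes kept, holding 99.967% of the reads), scaled by TMM and tested with the exact test that the methods name (edgeR 4.0.16 under R 4.3.3). Dispersions came from all 12 libraries (common biological coefficient of variation 3.21%), and p-values were adjusted by Benjamini and Hochberg over all genes tested, for each of 7 comparisons. Standard errors and 95% intervals were taken from a quasi-likelihood fit in edgeR. CPM used TMM-scaled totals. Per-length levels used the union of exons in GENCODE v44, matched by Ensembl identifier, and promoters came from RefSeq (GRCh38.p14), in which 35 of the 50 genes had an entry. Scripts were tested on simulated data.

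The 50 genes, the wider lists and the marker lists were chosen with earlier results of these data known. Genes are described in full by a rule: the 6 called Wnt genes with the largest change in each comparison with the negative control, at 1 CPM or more in either group and without overlap between the groups' libraries (4 between compounds), genes under 1 CPM with a log2 fold change of at least 1, the most abundant gene of each role per length, and 2 genes of the wider lists per comparison. Others are accounted for by values and counts. Groups came from the treatment labels, and replicate numbers follow the order of the samples and are names only. Alternatives were the quasi-likelihood test, DESeq2 1.42.0, its size factors or library totals in the exact test, other filters, dispersions from the groups compared, an FDR of 0.01, and leaving out each library. A fit without the positive controls was added after seeing the data.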

Additional observations from a re-analysis of the deposited data

Results flagged for a closer look

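TCF7L1 was picked out because its effects with 2 compounds went opposite ways against the same negative controls and the direct test between them passed. Its level was 83.1 ± 2.46 CPM with RES and 67.1 ± 1.34 CPM with POG (SD, n = 3 each), with negative controls between them at 73.7 ± 3.51 (SD, n = 2). The log2 difference of POG from RES was −0.31 (SE 0.0372, FDR = 1.91e-13), lower in 3 of 3 POG libraries than in any RES library, and this call held under every alternative tried. The separate calls against the negative control were less firm, since that for RES was lost without negative control replicate 2 (FDR = 0.197) and that for POG under 6 alternatives.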

How the results depend on the processing

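Of 95 called pairs of a Wnt gene and a comparison, 55 were called under every alternative that gave a value, and 0 reversed. WNT16 with serum is among both the 95 and the 55, although the filter on low counts fixed that call in advance. The RES count of 6 became 11 (5 higher, 6 lower) with dispersions from the libraries compared and 11 (4 higher, 7 lower) with positive controls left out of the fit, the latter chosen after seeing the data, and WLS, FZD4, LGR6 and TCF7L2 were added in both. The cause was not tested. Leaving out each library in turn gave 17 to 23 Wnt calls with serum, 4 to 6 with RES, 11 to 16 with POG, 7 to 9 with DEG, 17 to 19 for POG against RES, 9 to 16 for DEG against RES and 1 to 2 for DEG against POG. A group left with 1 library was assumed to vary like the others. The FZD4, FZD5, WNT2 and KREMEN1 calls with serum, WNT2B, FZD7, DKK3 and SFRP1 with POG, and APC and KREMEN1 with DEG were among those lost. In the wider list the RES count of 13 was 8 at an FDR of 0.01, the POG count of 10 was 16 with dispersions from the libraries compared, and the single DEG against POG call was joined by others under that setting (5 in all) and without positive controls (4 in all). No paired analysis was possible because the labels carry no replicate numbers, and those used here follow sample order. Depth limits the scarce genes: 3 reads over a group equal 0.0221 to 0.0385 CPM, so smaller amounts of SOST or SFRP2 were not detectable.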

Other observations

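Some wider pathway genes, chosen after their values were seen, moved in several groups. PRICKLE2, a component of the planar polarity branch of Wnt signaling, was at 55.6 ± 0.332 CPM in negative controls (SD, n = 2) and 56.2 ± 1.35 with RES (SD, n = 3), against 42.6 ± 3.77 with serum (SD, n = 2), 44.3 ± 0.0966 with POG (SD, n = 3) and 44.9 ± 1.26 with DEG (SD, n = 2). It fell by 0.39 with serum (FDR = 1.65e-11), by 0.33 with POG (FDR = 2.82e-09) and by 0.31 with DEG (FDR = 1.52e-06) on the log2 scale. Of the 12 planar polarity genes tested, 7 differed between POG and RES, 2 higher and 5 lower with POG (58.3%, against 27.9% of all genes), and PRICKLE2 had a log2 difference of −0.34 (FDR = 2.13e-13). That was the highest count for these 12 among the comparisons with a compound, the others giving 2 at most. TPBG, a membrane protein known as an inhibitor of canonical Wnt signaling, fell in all 4 comparisons with the negative control, by 0.22 for serum, 0.23 for RES, 0.31 for POG and 0.27 for DEG (FDR = 3.41e-08, 3.41e-09, 9.41e-18 and 8.68e-11). These 4 values share the negative control libraries, and no alternative was run for PRICKLE2 or TPBG singly. The same holds for CCND1, MYC, TNFRSF19, NOTUM and DACT1 of the wider list, for which no alternative was run singly.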
